A study of Mus musculus with 24 samples.

Results

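RAW264.7 cells, a mouse macrophage line derived from a male animal, were compared as wild type and as cells labelled Olfml3 knockout after 4 h with 100 ng/mL lipopolysaccharide (LPS), the outer membrane glycolipid of Gram-negative bacteria. The libraries were chosen by their titles and library names: 3 libraries labelled knockout with LPS and 3 wild-type libraries with LPS, 6 of the 24 RNA-seq libraries of the study. The other 18 came from the same line with PBS and from bone marrow-derived macrophages (BMDMs) of wild-type and Olfml3-/- mice. In 3 of the 6 libraries, those of wild-type cells, the genotype tag reads knockout and contradicts the title, and the title was used. The knockout line was made with lentiviral Cas9 guide RNAs and grown from single sorted cells, with the clone that was sequenced not stated, so that an effect of the edit and a property of the clone cannot be told apart. Nothing in the labels says that the 3 libraries of a group came from separate cultures, and p-values measure only the spread between libraries. The comparison addresses what OLFML3, a secreted glycoprotein with an olfactomedin domain, does in macrophages that respond to a bacterial product.

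LPS binds the receptor complex of CD14, TLR4 and MD-2 on macrophages. The adaptor MYD88 leads from there to NF-kappaB and AP-1, which switch on cytokines and chemokines within hours, while the adaptor TRIF leads to interferon beta, whose receptor signals to a later wave of interferon-stimulated genes. Stimulated macrophages also turn on Acod1 (Irg1), whose enzyme makes itaconate from the citrate cycle, and Nos2, which makes nitric oxide from arginine.

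The study designed 2 guide RNAs against Olfml3, shown here because they mark where the gene was to be broken. Each is written 5′ to 3′ in lower case, with the adjoining PAM of the genomic target in capitals:

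Olfml3-1: atgtcccagagagaacgcagAGG
Olfml3-2: gctgccccgtgcctacccagGGG

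Guide Olfml3-1 matched the minus strand at chr3:103736100-103736119 of GRCm38 and guide Olfml3-2 the plus strand at chr3:103736427-103736446, both within the coding part of exon 3 of 3, in codons 321 and 207 of 406. Each matched transcripts of 1 gene only. Which guide gave the sequenced clone is not stated. The study reports Sanger sequencing of the mutations in the alleles of its clones. It describes its Olfml3-/- cells as single clones with both alleles knocked out. At the RNA level Olfml3 itself went against the label. Wild-type libraries had 0.13, 0.13 and 0.29 FPKM (fragments per kilobase of exon, scaled to the library total) and libraries labelled knockout had 18.9, 18.8 and 18.3, so that all 3 lay above every wild-type library. The means were 0.183 ± 0.0924 and 18.7 ± 0.311 FPKM (SD, n = 3), from 48 and 4264 counts (log2 fold change 6.10, standard error 0.23, adjusted p = 0.000186, limma). The cause of the higher level was not tested. Small insertions or deletions in an exon leave RNA that can still be counted, so the level does not show whether the protein was lost. Directions are therefore given by label only.

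Some of the genes beside Olfml3 were also higher. Gm10964, a noncoding gene beside it, had no count in any wild-type library and 132, 140.4 and 163 FPKM in those labelled knockout, at least 244-fold higher against a floor of 3 counts over the wild-type group. Its exonic length is 120 bases, less than a read of 150 bases. The high FPKM rest on 646 counts, against 4264 for Olfml3, and the FPKM of these genes are not comparable. Gm10964 overlaps Hipk1, which codes for a nuclear kinase and was higher at 21.1 ± 0.249 against 13.2 ± 0.832 FPKM (log2 fold change 0.67, standard error 0.07, adjusted p = 0.00164, limma). The counting is not stated to use strand, and reads of overlapping genes cannot be told apart. Of the 10 tested genes nearest to Olfml3, 5 on each side, Trim33, a ubiquitin ligase gene (4.91 ± 0.159 to 8.02 ± 0.104 FPKM), Hipk1 and Gm10964 were called and the other 7 were not. With the length trend described below removed, Trim33 and Hipk1 were no longer called. Over all genes tested 20.6% were called, and 31.1% of those with a mean FPKM of at least 1.

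The 6 libraries held 11638273 to 14712413 counts, and 17954 to 18871 genes had at least 1. Between replicates of a group the chi-square of the counts was 1.87 to 2.24 times its degrees of freedom, more than counting noise, and each was counted as 1 replicate. The macrophage identity of the line was checked on 12 markers, of which 11 were detected. Their summed level was 3899 to 4032 FPKM in wild-type libraries and 1243 to 1306 in those labelled knockout, and 5 were lower and 1 higher. Lyz2 and Cd14, both lower and described below, held most of the summed level in each group. Csf1r, the receptor for the macrophage growth factor, was at 100.2 ± 2.17 and 78.5 ± 3.62 FPKM and Cd68 at 457 ± 7.31 and 332 ± 8.896, and neither was called. Siglec1, a sialic acid receptor of tissue macrophages, fell from 1.92 ± 0.225 to 0.167 ± 0.0252 FPKM. Marco was at 0 in all 6. RAW264.7 cells can form osteoclasts, and of 9 osteoclast markers 5 were lower and 1 higher (summed level 53.1 to 55.4 and 34.0 to 37.4 FPKM), among them the fusion receptor genes Ocstamp (5.52 ± 0.365 to 2.19 ± 0.498 FPKM) and Dcstamp (25.8 ± 0.631 to 14.2 ± 0.9504 FPKM). The dendritic cell markers were weak, at a summed 1.65 to 2.14 and 4.34 to 5.08 FPKM, with 2 of 6 higher, among them Siglech (0.387 ± 0.179 to 1.92 ± 0.227 FPKM). Epithelial markers (6 of 6) and fibroblast markers (summed level up to 0.0900 FPKM) were at or near 0. Of 9 neutrophil markers 6 were at 0, among them S100a8, S100a9, Ly6g and Mpo. The 3 detected were weak, at a summed 0.3 to 1.13 and 0.89 to 1.54 FPKM, and 1 of them was higher. Of the T and NK cell markers 8 of 11 were at 0, and Lck was the only one above 1 FPKM (2.54 ± 0.136 to 0.44 ± 0.147 FPKM). Of the B cell markers Ms4a1 was at 0, and Ighm was higher (76.2 ± 1.06 to 119 ± 3.04 FPKM). In these bulk libraries fewer cells of a type and less RNA per cell cannot be told apart, and the part of the marker differences in the results below was not tested.

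In the comparison itself 4876 of 23694 genes tested (20.6%) were called, that is, had a Benjamini-Hochberg adjusted p under 0.05 from limma on log2(FPKM + 0.1) and a fold change of at least 1.5 on that scale. Of these, 2790 were higher in libraries labelled knockout (11.8% of genes tested) and 2086 were lower (8.8%). Among the 11668 genes whose mean in one group or the other reached 1 FPKM, 31.1% were called, 17.0% higher and 14.1% lower, and 291 were higher and 133 lower by 2 or more on the log2 scale. The 3 libraries of one group did not overlap those of the other for 73.7% of these 11668 genes and 45.4% of all genes tested. Log2 fold changes below are on the log2(FPKM + 0.1) scale, which understates changes of weakly expressed genes, and 1246 calls were of genes with a mean FPKM under 1 in both groups. The share of calls that were higher, 57.2%, rose to 77.6% when each library's FPKM were rescaled to one sum (TPM) and fell to 48.9% with quantile normalization. TPM moved the median of all genes from 0.06 to 0.20 on the log2 scale.

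**Figure D1:**
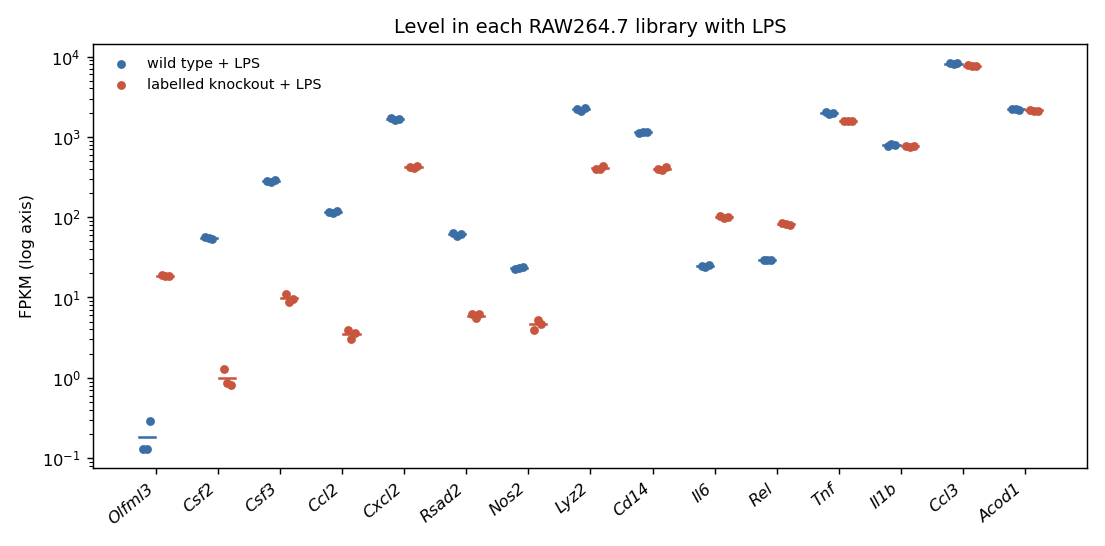
FPKM on a log axis of 15 genes in the 3 wild-type libraries (blue) and the 3 libraries labelled knockout (red) with LPS; points are libraries and bars are means. The groups lie far apart for Csf2, Csf3, Ccl2 and Rsad2, with Olfml3, Il6 and Rel higher in the libraries labelled knockout, while Il1b, Ccl3 and Acod1 lie side by side.

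The direction of change followed gene length. Among genes with a mean FPKM of at least 1, the median log2 fold change was -0.27 in the shortest of 5 equal groups by exonic length (11 to 1470 bases), -0.30, -0.09 and 0.14 in the next 3, and 0.47 in the longest (6883 to 41619 bases). In the longest group 41.3% of genes were called higher and 2.87% lower, against 12.2% and 22.96% in the shortest. The median log2 level of the longest group minus that of the shortest, relative to the mean of the 12 RAW264.7 libraries, was 0.29 to 0.37 in the 3 libraries labelled knockout and -0.42 to -0.35 in the 3 wild-type libraries. Its part in the single results was not tested, and the gene lists below are given as well with the trend over length removed from every library, an alternative chosen after seeing the data. With it 4268 genes were called, 2547 higher and 1721 lower.

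**Figure D2:**
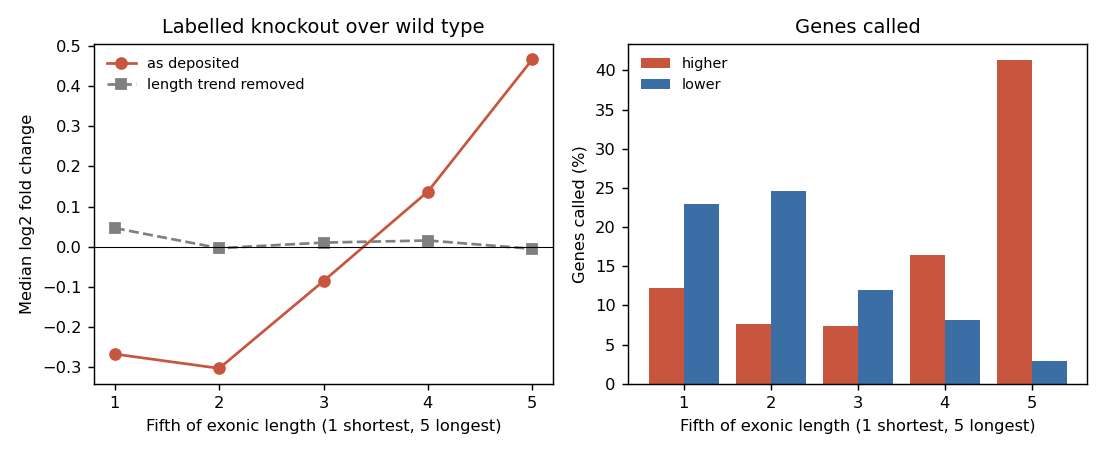
Left, median log2 fold change of libraries labelled knockout over wild type in 5 equal groups of genes by exonic length, with FPKM as deposited (red) and with the length trend removed (grey). Right, percentage of genes called higher (red) or lower (blue) in each group; short genes were more often lower and long genes more often higher.

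Colony-stimulating factors, monocyte chemoattractants and interleukin 10 were far lower in the libraries labelled knockout, while Il6 was higher and the abundant Tnf, Il1b and Ccl3 were not called. Of 27 inflammatory cytokine genes tested, 10 were lower and 3 higher, and of 22 chemokine genes tested, 7 were lower and 1 higher. With the length trend removed 10 cytokine genes were lower and 7 higher, and 6 chemokine genes lower and 2 higher. Csf2 encodes GM-CSF, a growth factor for granulocytes and macrophages. It stood at 55.9, 54.8 and 53.8 FPKM in wild-type libraries and 1.29, 0.85 and 0.82 in those labelled knockout, 55.6-fold lower by the means (log2 fold change -5.69, standard error 0.18, adjusted p = 0.000142, limma). Csf3 encodes the granulocyte growth factor G-CSF. Its values were 280.0, 270.4 and 294 FPKM in wild type and 11.1, 8.75 and 9.71 in the libraries labelled knockout, 28.6-fold lower (log2 fold change -4.83, standard error 0.10, adjusted p = 8.05e-05, limma). No library of one group came near the other for either gene. Il10, the anti-inflammatory cytokine, was weakly expressed and fell from 2.42 ± 0.0608 to 0.21 ± 0.0954 FPKM (log2 fold change -3.07, standard error 0.24, adjusted p = 0.000796, limma).

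Il6, which drives fever and the acute phase, went the other way. It was at 24.8, 24.2 and 25.4 FPKM in wild-type libraries and 103, 97.5 and 99.8 in those labelled knockout, 4.03-fold higher (log2 fold change 2.01, standard error 0.05, adjusted p = 0.000117, limma). Tnf, among the first cytokines made after LPS, stood at 2028, 1940.2 and 1995 and 1581, 1567 and 1586 FPKM. The Tnf groups did not overlap, but the difference was under the 1.5-fold threshold (log2 fold change -0.33, standard error 0.05, adjusted p = 0.006499, limma). Il1b, the fever cytokine released by inflammasomes, was at 794 ± 23.1 and 761 ± 13.7 FPKM and did not pass the test (adjusted p = 0.445, limma).

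Among chemokines, Ccl2 and Ccl7, neighbours that attract monocytes through CCR2, showed the largest falls. Ccl2 (MCP-1) was at 117, 113 and 118 FPKM in wild-type libraries and 3.93, 3.07 and 3.59 in those labelled knockout, 32.8-fold lower (log2 fold change -5.01, standard error 0.10, adjusted p = 7.81e-05, limma). Ccl7 was at 9.75, 10.3 and 9.52 and 0.11, 0.38 and 0 FPKM, from 331 and 5 counts, and its libraries labelled knockout spread widely near 0 (log2 fold change -5.52, standard error 0.58, adjusted p = 0.00187, limma). Ccl12, a related chemokine, rested on 14 counts in wild type and none in the other group, and was no longer called with the length trend removed. Cxcl11, an interferon-induced T cell attractant, was lower (11.3 ± 0.801 to 1.97 ± 0.333 FPKM), as was the neutrophil attractant Cxcl2, one of the 10 most abundant genes called (1670.5 ± 39.5 to 424 ± 14.8 FPKM, log2 fold change -1.98, standard error 0.06, adjusted p = 0.000126, limma). By contrast Ccl3, at 8133 ± 155 and 7613 ± 139 FPKM the most abundant chemokine, was not called, and neither was Ccl4 (3669 ± 60.98 and 2518 ± 88.7 FPKM). Of 15 chemoattractant receptor genes tested 6 were lower and 0 higher by limma (7 and 0 by edgeR, and 0 higher at an unadjusted p under 0.05), including Ccr1 (1.14 ± 0.0862 to 0.12 ± 0.108 FPKM) and the formyl peptide receptors Fpr1 (1.51 ± 0.225 to 0.703 ± 0.292 FPKM) and Fpr2 (2.53 ± 0.223 to 1.13 ± 0.514 FPKM). These were weak, and with the length trend removed 2 of the 15 were lower, Fpr1 and Fpr2 not among them. With TPM 1 of the 15 was lower and 0 higher. The 40% called, all lower, compare with 14.1% lower and 17.0% higher among all genes with a mean FPKM of at least 1. Ccr2 itself fell from 0.657 ± 0.185 to 0.313 ± 0.0709 FPKM (adjusted p = 0.0403, limma).

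**Figure D3:**
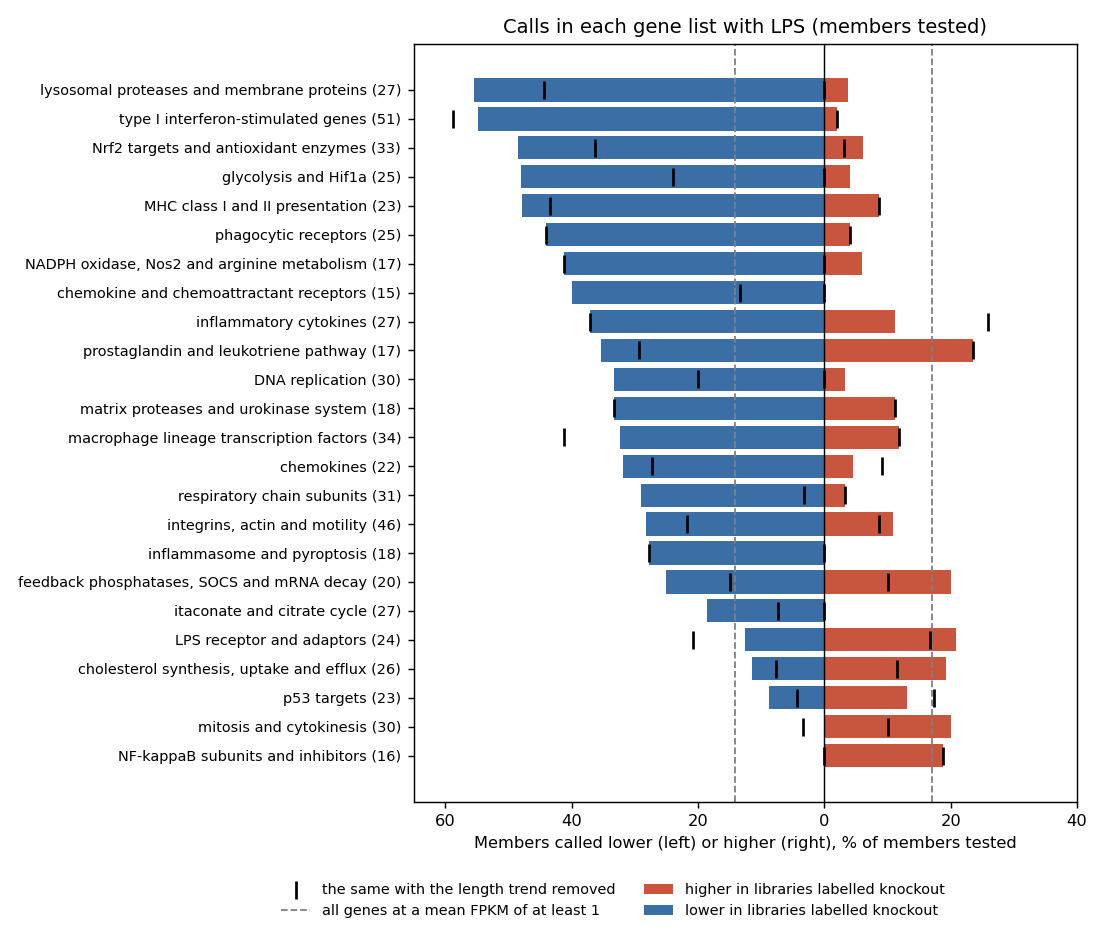
Percentage of the tested members of 24 gene lists called lower (blue, left) or higher (red, right) in libraries labelled knockout with LPS; black ticks give the same with the length trend removed and dashed lines the shares among all genes with a mean FPKM of at least 1 (14.1% lower, 17.0% higher). Interferon-stimulated and lysosomal genes had the largest shares of lower members, 28 of 51 and 15 of 27, and NF-kappaB and mitosis genes had none.

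Of 24 genes for the LPS receptor and its adaptors 5 were higher and 3 lower, shares near those of all genes with a mean FPKM of at least 1 (17.0% higher and 14.1% lower). With the length trend removed 4 were higher and 5 lower, and with TPM 10 and 3. Cd14, the co-receptor that hands LPS to TLR4, was at 1112, 1152 and 1143 FPKM in wild-type libraries and 397, 383 and 416 in those labelled knockout (log2 fold change -1.51, standard error 0.06, adjusted p = 0.000189, limma), and Itgam, the integrin CD11b, fell from 8.03 ± 0.585 to 1.46 ± 0.284 FPKM. Tirap, the adaptor that brings MYD88 to the receptor, was higher (6.63 ± 0.254 to 17.96 ± 0.582 FPKM), and so was Cd180, a receptor related to TLR4 (27.1 ± 0.719 to 71.4 ± 2.25 FPKM). Myd88 (87.3 ± 1.98 to 58.9 ± 1.53 FPKM, log2 fold change -0.57) and the kinase gene Irak2 (42.8 ± 0.4801 to 45.5 ± 0.964 FPKM) were not called. Among 16 NF-kappaB subunits and inhibitors 18.75% were called, against 31.1% of all genes with a mean FPKM of at least 1. Of the 16, 3 were higher and 0 lower by limma and by edgeR (3 lower at an unadjusted p under 0.05), and the same counts held with the length trend removed. The 3 were the subunit Rel (29.3 ± 0.386 to 81.6 ± 1.93 FPKM, log2 fold change 1.47, standard error 0.05, adjusted p = 0.000167, limma), the nuclear inhibitor family member Nfkbiz, which is needed for late targets such as Il6 (59.9 ± 3.15 to 131 ± 2.87 FPKM), and the feedback enzyme Tnfaip3 (36.5 ± 0.420 to 79.8 ± 2.74 FPKM). Nfkbia, the inhibitor IkappaB alpha, stood at 371 ± 8.35 and 349 ± 6.44 FPKM and was not called, nor was Nfkb1 (88.3 ± 2.72 and 130.5 ± 0.855 FPKM).

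Of 20 feedback regulators 4 were higher and 5 lower (2 and 3 with the length trend removed, and 4 and 3 with TPM). Dusp6, a phosphatase that switches off ERK, fell 12.3-fold (7.14 ± 0.441 to 0.58 ± 0.080 FPKM, log2 fold change -3.42, standard error 0.11, adjusted p = 0.000149, limma), its relative Dusp5 fell from 33.4 ± 1.17 to 9.08 ± 0.432 FPKM, and the pseudokinase gene Trib1 from 3.24 ± 0.010 to 0.977 ± 0.0252 FPKM. Zc3h12c, of the Regnase family of RNA-degrading enzymes, rose 5.57-fold (16.6 ± 0.322 to 92.5 ± 2.696 FPKM, log2 fold change 2.47, standard error 0.05, adjusted p = 8.24e-05, limma). Socs3 (143 ± 3.65 and 110.2 ± 4.28 FPKM) and Atf3 (113 ± 2.67 and 85.03 ± 1.67 FPKM) were not called. Of 34 macrophage lineage and activation transcription factors 11 were lower and 4 higher (14 and 4 with the length trend removed, 15 and 4 by edgeR). The AP-1 subunit Jun (11.01 ± 0.516 to 2.06 ± 0.430 FPKM) was lower, and Irf4 (0.77 ± 0.306 to 4.597 ± 0.174 FPKM) and Runx3 (0.217 ± 0.1002 to 1.82 ± 0.3403 FPKM) were higher. Spi1, which encodes PU.1, the defining factor of the lineage, was at 243 ± 5.78 and 214 ± 5.83 FPKM, and Junb at 194 ± 5.22 and 181 ± 3.54, and neither was called.

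Interferon-stimulated genes were lower more often than higher. Of 51 tested, 28 were lower and 1 higher (23 and 4 with TPM), with a median log2 fold change of -0.74 against 0.06 over all genes tested, and with the length trend removed 30 were lower and 1 higher. Rsad2, which encodes viperin, was at 62.9, 59.1 and 61.3 FPKM in wild-type libraries and 6.22, 5.5 and 6.18 in those labelled knockout, 10.2-fold lower (log2 fold change -3.34, standard error 0.07, adjusted p = 8.24e-05, limma). Its neighbour Cmpk2, a mitochondrial nucleotide kinase gene, fell from 44.6 ± 0.645 to 8.397 ± 0.345 FPKM (log2 fold change -2.39, standard error 0.06, adjusted p = 8.81e-05, limma), Ifi27l2a from 138 ± 3.89 to 14.99 ± 1.02 FPKM, and Slfn1, a Schlafen gene, from 1.3 ± 0.375 to 0.040 ± 0.040 FPKM. The decrease was not shared by all. Isg15, the ubiquitin-like modifier, stood at 429 ± 1.13 and 324 ± 15.3 FPKM and the oligoadenylate synthetase-like gene Oasl1 at 510.1 ± 2.26 and 473 ± 3.19, and neither was called.

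Promoters of a few genes of this response, chosen after their values were seen, are printed to show what sequence they share and do not share. RefSeq sequences (GRCm38.p6) span 250 bases before to 50 after the start of the gene and were at hand for Csf2, Rsad2, Cmpk2 and Il6, but not for Ccl2, Ccl7, Csf3 or Nos2. Those of Cxcl10 and Olfml3 were at hand and are not printed. Capitals mark matches on either strand to 4 motifs: GAAANNGAA (interferon response element), GGNNTTTCC (kappaB), TGANTCA (AP-1) and TTGCNNAA (C/EBP). The first 2 are shortened forms, set after matches to longer forms had been seen. Csf2 lies at chr11:54249850-54250149 on the minus strand, Rsad2 at chr12:26456403-26456702 on the minus strand, Cmpk2 at chr12:26468965-26469264 on the plus strand and Il6 at chr5:30012864-30013163 on the plus strand.

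Csf2: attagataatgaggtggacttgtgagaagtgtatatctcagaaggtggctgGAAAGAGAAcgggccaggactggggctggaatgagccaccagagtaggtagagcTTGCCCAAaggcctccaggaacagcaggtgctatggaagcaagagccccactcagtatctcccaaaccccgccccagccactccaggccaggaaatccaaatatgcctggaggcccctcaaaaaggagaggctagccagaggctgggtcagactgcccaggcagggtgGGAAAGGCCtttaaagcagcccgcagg
Rsad2: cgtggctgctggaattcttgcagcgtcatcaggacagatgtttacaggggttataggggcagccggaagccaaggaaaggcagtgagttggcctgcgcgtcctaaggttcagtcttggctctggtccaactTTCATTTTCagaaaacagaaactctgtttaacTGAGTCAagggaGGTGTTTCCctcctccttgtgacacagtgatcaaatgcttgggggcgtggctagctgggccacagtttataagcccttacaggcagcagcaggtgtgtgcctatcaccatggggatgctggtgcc
Cmpk2: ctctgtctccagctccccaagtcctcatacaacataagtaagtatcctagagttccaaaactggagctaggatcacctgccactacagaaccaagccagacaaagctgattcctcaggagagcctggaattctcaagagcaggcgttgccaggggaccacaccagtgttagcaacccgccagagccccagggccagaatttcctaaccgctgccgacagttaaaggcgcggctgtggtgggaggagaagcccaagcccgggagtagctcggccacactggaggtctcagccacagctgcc
Il6: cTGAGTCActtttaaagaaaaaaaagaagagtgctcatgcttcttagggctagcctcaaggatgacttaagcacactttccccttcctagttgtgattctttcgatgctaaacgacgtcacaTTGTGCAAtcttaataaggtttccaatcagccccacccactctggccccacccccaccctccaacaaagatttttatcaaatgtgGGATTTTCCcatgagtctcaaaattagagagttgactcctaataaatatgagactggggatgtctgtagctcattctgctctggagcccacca

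The Rsad2 window held an interferon response element, an AP-1 and a kappaB motif that began 119, 87 and 75 bases before the start, and the Il6 window an AP-1, a C/EBP and a kappaB motif at 249, 128 and 43 bases before it. The Csf2 window held an interferon response element and a C/EBP motif at 199 and 145 bases before the start and a kappaB motif at 23 bases after it, and the Cmpk2 window none of the 4. These short forms are common. Among 27025 genes with a promoter sequence, 9.76% held the interferon response element, 6.62% the kappaB, 8.97% the AP-1 and 12.2% the C/EBP motif. The interferon response element was found in 14 of 22 interferon-stimulated genes that were lower (63.6%) and in 12 of 17 that were not called (70.6%). A match is a description of the letters and not a binding site.

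Acod1 encodes IRG1, the enzyme that makes itaconate. In its knockout cells the study reports less IRG1 protein at baseline and early after LPS, and less itaconate after LPS. Those are other measures than the RNA at 4 h given here. Acod1 RNA was abundant in both groups and was not called. Its levels were 2211, 2201 and 2188 FPKM in wild-type libraries and 2153, 2114 and 2122 in those labelled knockout (log2 fold change -0.05, standard error 0.05, adjusted p = 0.488, limma). With PBS Acod1 was at 2.76 FPKM in wild type and 0.75 in libraries labelled knockout. It was called lower there only without replicate 1 of the PBS libraries labelled knockout, described below. Of 27 genes of itaconate metabolism and the citrate cycle 5 were lower and 0 higher by limma and by edgeR (3 higher at an unadjusted p under 0.05). The 18.5% called, all lower, compare with 14.1% lower and 17.0% higher among all genes with a mean FPKM of at least 1. The largest difference was in Idh1, the cytosolic isocitrate dehydrogenase (25.8 ± 1.17 to 9.77 ± 0.226 FPKM, log2 fold change -1.39, standard error 0.06, adjusted p = 0.000226, limma). Idh2 (76.4 ± 1.34 to 46.3 ± 3.18 FPKM), Sdhb (63.4 ± 2.201 to 40.1 ± 0.885 FPKM) and Suclg1 (27.3 ± 1.34 to 17.3 ± 0.459 FPKM) were called at smaller differences, and Sdhd (156 ± 5.39 and 149 ± 4.28 FPKM) was not. With the length trend removed Idh1 and Suclg1 were the 2 of the 27 that were lower, and with TPM 1 was lower, 1 was higher and the median turned from -0.18 to 0.05. Aifm1, which encodes the mitochondrial flavoprotein AIF, was at 24.8 ± 0.872 and 22.1 ± 1.67 FPKM and was not called (adjusted p = 0.175, limma).

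Several genes of nitric oxide and arginine metabolism were lower. Nos2, the inducible nitric oxide synthase, was at 22.7, 23.5 and 23.7 FPKM in wild-type libraries and 3.91, 5.28 and 4.69 in those labelled knockout, 5.04-fold lower (log2 fold change -2.32, standard error 0.12, adjusted p = 0.000313, limma). Odc1, the first enzyme of polyamine synthesis, fell from 689.7 ± 20.6 to 173 ± 4.83 FPKM (log2 fold change -1.99, standard error 0.06, adjusted p = 0.000126, limma) and the mitochondrial arginase Arg2 from 5.36 ± 0.671 to 1.59 ± 0.09504 FPKM. Ass1, which rebuilds arginine from citrulline, had 83 counts in wild type and none in the other group, at least 24.7-fold lower against 3 counts over the group. With the NADPH oxidase subunits, 7 of 17 genes in this list were lower and 1 higher (7 lower with the length trend removed, 5 lower and 3 higher with TPM), and the oxidase subunit gene Cyba (279.7 ± 2.75 and 214 ± 5.999 FPKM) was not called.

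Of 33 antioxidant genes tested 16 were lower and 2 higher. The metallothioneins Mt2 (388 ± 9.14 to 76.5 ± 8.85 FPKM, log2 fold change -2.35, standard error 0.10, adjusted p = 0.000219, limma) and Mt1 (185 ± 8.07 to 65.5 ± 0.936 FPKM), small proteins that bind zinc and copper, the glutathione transferase Gstm1 (7.07 ± 0.852 to 0.37 ± 0.318 FPKM) and Gpx4, which repairs lipid peroxides (26.6 ± 0.201 to 11.1 ± 0.911 FPKM), led the falls. Ftl1, the ferritin light chain gene and one of the 10 most abundant genes called, went from 1348 ± 11.2 to 700.3 ± 11.9 FPKM (log2 fold change -0.94, standard error 0.05, adjusted p = 0.000332, limma) and was not called with the length trend removed. The thioredoxin reductase Txnrd1 (82.2 ± 2.44 and 101 ± 1.08 FPKM) and peroxiredoxin Prdx3 (93.6 ± 1.08 and 83.6 ± 1.94 FPKM) were not called. With the length trend removed 12 of the 33 were lower and 1 higher, and with TPM 13 and 2. Gstm1 has close paralogs, and how reads were split among them is not stated.

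Of 25 phagocytic receptor genes tested (of 31 listed) 11 were lower and 1 higher, and the same numbers held with the length trend removed, while 8 were lower and 3 higher with TPM. Clec4d, a C-type lectin for mycobacterial glycolipid, fell 6.47-fold (92.5 ± 2.44 to 14.3 ± 0.404 FPKM, log2 fold change -2.68, standard error 0.06, adjusted p = 7.81e-05, limma), Mfge8, which bridges dying cells to integrins, fell from 16.8 ± 0.728 to 4.54 ± 0.686 FPKM, and the Fc receptor gene Fcgr3, weak in both groups, from 0.637 ± 0.2899 to 0.0167 ± 0.0289 FPKM. The shared signalling chain Fcer1g (192 ± 2.51 and 171 ± 1.82 FPKM) and the integrin chain Itgb2 (72.8 ± 1.34 and 58.4 ± 1.36 FPKM) were not called. Among 46 integrin, actin and motility genes 13 were lower and 5 higher (10 and 4 with the length trend removed). Tmsb10, which binds monomeric actin (76.98 ± 1.69 to 8.28 ± 0.356 FPKM, log2 fold change -3.20, standard error 0.06, adjusted p = 6.88e-05, limma), and Itgb7 (6.88 ± 0.626 to 0.913 ± 0.261 FPKM) were lower, and Itga4, the partner of ITGB7 and ITGB1 (56.8 ± 0.866 to 171 ± 3.38 FPKM), was higher. Actb stood at 2414 ± 48.5 to 1607 ± 22.2 FPKM and was called, but not with the length trend removed, and cofilin Cfl1 (778 ± 7.04 and 571 ± 1.81 FPKM) was not called. With TPM this list split as 11 higher and 8 lower, the reverse of its main direction.

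Secreted proteins that remodel matrix were among the largest changes. Of 18 genes tested 6 were lower and 2 higher, unchanged in number with the length trend removed. Mmp9, a gelatinase, was at 10.1, 8.68 and 9.93 FPKM in wild type and 0.53, 0.56 and 0.53 in the libraries labelled knockout (log2 fold change -3.91, standard error 0.08, adjusted p = 7.81e-05, limma). Its inhibitor Timp1 fell from 80.7 ± 1.73 to 8.23 ± 1.53 FPKM, the urokinase gene Plau from 23.4 ± 1.35 to 4.72 ± 0.685 FPKM and the membrane protease Adam8 from 28.5 ± 0.4499 to 6.09 ± 0.070 FPKM. Plaur, the urokinase receptor, was at 266 ± 2.55 and 187 ± 1.28 FPKM and was not called. Spp1, the secreted phosphoprotein osteopontin and one of the 10 most abundant genes called, was at 3003, 2929 and 2957 and 881, 781 and 885 FPKM (log2 fold change -1.81, standard error 0.07, adjusted p = 0.000189, limma).

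In the prostaglandin and leukotriene pathway 6 of 17 genes were lower and 4 higher (5 and 4 with the length trend removed). Ptgs2, the inducible cyclooxygenase, was at 451 ± 22.2 and 519.9 ± 9.63 FPKM and was not called. The prostacyclin receptor gene Ptgir (11.8 ± 0.582 to 1.03 ± 0.361 FPKM, log2 fold change -3.44, standard error 0.24, adjusted p = 0.000645, limma) and the leukotriene synthase Alox5 (10.2 ± 0.342 to 2.81 ± 0.288 FPKM) were lower, and Hpgd, which breaks prostaglandins down, was weak but higher (0.0567 ± 0.0493 to 1.24 ± 0.374 FPKM). Of 8 VEGF receptor and ligand genes 2 were lower and 1 higher (2 and 0 with the length trend removed, where Nrp2 was not called). The 37.5% called compare with 31.1% of all genes with a mean FPKM of at least 1, and with TPM 1 was lower and 1 higher. Flt1, the receptor VEGFR1, had 4029 counts in wild-type libraries and 5 in those labelled knockout, with 7.06, 7.11 and 7.16 and 0.010, 0.010 and 0.010 FPKM (log2 fold change -6.03, standard error 0.05, adjusted p = 7.38e-06, limma). The co-receptor gene Nrp2 went from 76.7 ± 0.657 to 129 ± 4.56 FPKM (log2 fold change 0.75, standard error 0.06, adjusted p = 0.000724, limma), and Vegfa was at 9.24 ± 0.383 and 9.46 ± 1.34 FPKM and was not called.

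Lysozyme fell, and lysosomal genes were lower more often than higher. Lyz2, the macrophage lysozyme and one of the most abundant transcripts of wild-type cells, was at 2221, 2118 and 2264 FPKM in wild-type libraries and 392, 399.6 and 433 in those labelled knockout, 5.39-fold lower (log2 fold change -2.43, standard error 0.07, adjusted p = 0.000117, limma). Lyz2 and Lyz1 are near-identical copies, and how reads were split between them is not stated. Of 27 genes for lysosomal proteases and membrane proteins 15 were lower and 1 higher (12 lower with the length trend removed), among the lower Gpnmb (48.8 ± 0.375 to 6.9 ± 0.757 FPKM, log2 fold change -2.81, standard error 0.09, adjusted p = 0.0001502, limma) and the cathepsins Ctsl (39.5 ± 1.703 to 11.3 ± 0.336 FPKM) and Ctsd (164 ± 1.91 to 58.8 ± 3.08 FPKM). Ctss, which trims the MHC class II invariant chain, stood at 404 ± 8.97 and 277 ± 5.38 FPKM and was not called. Of 23 antigen presentation genes 11 were lower and 2 higher (10 and 2 with the length trend removed). The immunoproteasome subunits Psmb8 (37.6 ± 1.47 to 13.3 ± 0.927 FPKM), Psmb9 (5.16 ± 0.163 to 1.77 ± 0.108 FPKM) and Psmb10 (42.97 ± 2.58 to 18.1 ± 0.919 FPKM) and the class I gene H2-M3 (14.4 ± 0.659 to 5.84 ± 0.381 FPKM) had the largest differences, while B2m, the shared light chain of class I, was at 919 ± 17.2 and 657 ± 12.6 FPKM and was not called. H2-Ab1 and H2-Eb1 were at 0 in all 6 libraries.

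Among 18 inflammasome and pyroptosis genes 5 were lower and 0 higher by limma, 6 and 0 by edgeR, with 2 higher at an unadjusted p under 0.05, and 5 were lower with the length trend removed. With TPM 3 were lower and 0 higher. The 27.8% called lay under the 31.1% of all genes with a mean FPKM of at least 1. Ninj1, which ruptures the membrane of dying cells, fell from 67.5 ± 1.97 to 20.5 ± 1.28 FPKM (log2 fold change -1.72, standard error 0.07, adjusted p = 0.000196, limma) and the necroptosis effector Mlkl from 15.99 ± 0.556 to 6.82 ± 0.3205 FPKM. The sensor Nlrp3 stood at 138 ± 3.52 and 139.6 ± 4.43 FPKM and was not called (adjusted p = 0.859, limma).

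Counts in the metabolic and proliferation lists depended on the treatment of gene length and scaling. Of 25 glycolysis genes 12 were lower and 1 higher, among them Pgk1 (146 ± 2.86 to 80.9 ± 3.03 FPKM) and Tpi1 (438 ± 5.77 to 253 ± 7.83 FPKM), but 6 were lower with the length trend removed and 2 with TPM, where 3 were higher. Pgk1 and Tpi1 were not called with the length trend removed. Egln3, an oxygen-sensing hydroxylase gene that hypoxia induces, was the largest change of the list (0.507 ± 0.09504 to 0 ± 0 FPKM). Pkm, the most abundant of them, was at 1236 ± 3.98 and 1171 ± 1.302 FPKM and was not called. Of 31 respiratory chain genes and regulators 9 were lower, such as Ndufa2 (144 ± 5.16 to 71.6 ± 11.02 FPKM) and Cox7a2 (160.3 ± 3.54 to 93.1 ± 4.26 FPKM), and 1 was lower with the length trend removed, where Cox7a2 was not called, and 1 with TPM. Ppargc1b, a coactivator of mitochondrial genes that is no subunit, was higher (1.22 ± 0.0794 to 5.17 ± 0.228 FPKM, log2 fold change 2.00, standard error 0.07, adjusted p = 0.000178, limma), and Atp5b stood at 446 ± 1.33 and 333 ± 3.64 FPKM and was not called. Of 26 cholesterol genes 30.8% were called, near the 31.1% of all genes with a mean FPKM of at least 1. Of the 26, 5 were higher and 3 lower (3 and 2 with the length trend removed). The efflux pump Abca1 (1.08 ± 0.107 to 2.87 ± 0.332 FPKM), lipoprotein lipase Lpl (154 ± 2.16 to 302 ± 7.703 FPKM) and the weak Ch25h (0.117 ± 0.126 to 1.21 ± 0.0902 FPKM) were higher, and Fdps (55.9 ± 2.53 to 26.1 ± 0.597 FPKM) was lower. Lpl was not called with the length trend removed.

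Of 30 DNA replication genes 10 were lower and 1 higher, including the sliding clamp Pcna (84.1 ± 0.389 to 48.5 ± 1.75 FPKM), and the helicase subunit Mcm3 was at 44.98 ± 1.08 and 43.3 ± 0.962 FPKM and was not called. Of 30 mitosis genes 6 were higher and 0 lower by limma, 6 and 1 by edgeR, with 8 lower at an unadjusted p under 0.05, a share higher near the 17.0% of all genes with a mean FPKM of at least 1. They included Mki67, the marker of cycling cells (34.7 ± 1.196 to 79.1 ± 1.58 FPKM, log2 fold change 1.19, standard error 0.06, adjusted p = 0.000256, limma), Anln (11.8 ± 0.208 to 24.2 ± 0.136 FPKM), Cenpf (5.75 ± 0.202 to 11.8 ± 0.389 FPKM) and Hmmr (16.6 ± 0.792 to 28.6 ± 0.945 FPKM), while Cdc20 (87.8 ± 5.21 and 86.2 ± 2.13 FPKM) was not called. With the length trend removed 6 replication genes were lower, Pcna no longer among them, and 3 mitosis genes were higher and 1 lower, Cenpf no longer among them. With TPM 2 replication genes were lower and 12 mitosis genes higher. Of 23 p53 targets 21.7% were called, near the 20.6% of all genes tested and under the 31.1% of those with a mean FPKM of at least 1. Of the 23, 3 were higher and 2 lower (2 and 3 by edgeR, 4 and 1 with the length trend removed), among them Eda2r (0.0467 ± 0.0208 to 0.847 ± 0.0802 FPKM), Sesn1 (2.6 ± 0.299 to 4.97 ± 0.43 FPKM) and Ddit4 (3.56 ± 0.297 to 1.04 ± 0.3496 FPKM).

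The 10 largest falls among genes with a mean FPKM of at least 1, at least 50 counts and groups that did not overlap included Csf2, Ccl7, Ccl2 and Flt1 described above, and the Y-linked Eif2s3y and Ddx3y. Eif2s3y was at 9.48, 9.92 and 9.0 FPKM in wild-type libraries and Ddx3y at 7.29, 6.3 and 7.75, and neither had a count in any library labelled knockout, at least 487-fold and 457-fold lower against 3 counts over the group. Kdm5d had no count there either (0.973 ± 0.0777 FPKM in wild type) and Uty had 1. The other 4 falls were in the X-linked 3830403N18Rik (25.3 ± 0.868 to 0.133 ± 0.231 FPKM), the testis proteasome subunit Psma8 (6.85 ± 0.505 FPKM and no count), the X-linked homeobox gene Rhox2h (3.79 ± 0.0961 FPKM and no count) and the Y-linked Gm29650 (3.78 ± 1.11 FPKM and no count). Rhox2h lies in a cluster of near-identical copies, and its value is uncertain.

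The 10 largest rises were led by Gm10964 and Olfml3. Slc9a7, an endosomal sodium-proton exchanger gene on the X chromosome, had no count in wild type and 2.04 ± 0.367 FPKM in libraries labelled knockout, at least 109-fold higher against 3 counts over the group. The remaining 7 were predicted or noncoding genes. Gm49959 (0.363 ± 0.315 to 13.3 ± 2.01 FPKM), Gm49958 (0.333 ± 0.214 to 11.02 ± 0.236 FPKM) and Gm38357 (0.137 ± 0.0252 to 7.403 ± 0.810 FPKM) had the highest FPKM in the libraries labelled knockout. Gm11870 (0.11 ± 0.0656 to 4.54 ± 0.343 FPKM), Gm15398 (0.0133 ± 0.0231 to 2.95 ± 0.441 FPKM) and Gm42664 (0.0567 ± 0.0814 to 2.97 ± 0.218 FPKM) had lower FPKM. Gm49959 and Gm49958, of 254 and 353 exonic bases, rest on 126 and 144 counts in those libraries, against 675 for Gm38357 with 2464 bases. The seventh was a 7SK copy (0.0833 ± 0.144 to 7.19 ± 2.77 FPKM), whose name several genes share and whose value is uncertain. The largest adjusted p of these 20 genes was 0.00633 (limma). Of the other olfactomedin genes, 4 of the family of 10 being tested, Olfm2 was higher (0 ± 0 to 0.213 ± 0.0611 FPKM) and Olfm1 lower (80.8 ± 1.11 to 46.2 ± 1.19 FPKM), also with the length trend removed. The 10 most abundant genes called also held the calcium-binding S100a4 (1833 ± 44.3 to 785 ± 18.9 FPKM), the ribosomal protein genes Rps15 (2007 ± 56.9 to 1239 ± 17.9 FPKM) and Rpl8 (1561 ± 31.03 to 1008 ± 13.1 FPKM), and mt-Nd5, a mitochondrially encoded subunit of complex I (925 ± 35.04 to 1556 ± 49.1 FPKM). Rps15 and Rpl8 were not called with the length trend removed, and ribosomal protein genes have processed copies that share their reads.

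Called genes lay on every chromosome, and chromosome 9 had the highest share among the autosomes. On chromosome 9, 207 of 652 genes with a mean FPKM of at least 1 were higher and 53 lower, 39.9% called against 24.9% to 36.3% on the other autosomes and the X chromosome. Its median log2 fold change was 0.34 (0.28 with the length trend removed), and the medians of those others ran from -0.12 to 0.14. Along chromosome 9 the median fell from 0.79 in the first 20 Mb to -0.01 between 100 and 120 Mb, and the PBS libraries without replicate 1 of those labelled knockout, described below, gave 0.95 and 0.04. Zc3h12c and Tirap, described above, lie in stretches of chromosome 9 with medians of 0.52 and 0.57. With PBS both were called higher only without replicate 1 of the libraries labelled knockout (log2 fold changes 2.13 and 1.60). Neither had a called interaction with LPS. All 4 Y-linked genes at this level were lower. There were 15 runs of 5 or more neighbouring genes called in one direction, 12 higher and 3 lower. The 3 lower runs held the guanylate-binding protein genes Gbp5, Gbp7, Gbp3, Gbp2b and Gbp2 with Kyat3 on chromosome 3, the class I processing genes Psmb9, Tap1, Psmb8 and Tap2 with Gpsm3 on chromosome 17, and the interferon-induced transmembrane protein family genes Ifitm5, Ifitm2, Ifitm3 and Ifitm6 with Pgghg on chromosome 7, with median log2 fold changes of -1.40, -1.11 and -1.31. One of the runs of higher genes held Birc2 and Birc3, inhibitors of cell death, with 6 neighbours on chromosome 9 (median 1.03). Another held Igf2r and its antisense RNA Airn with Gm49959 and Gm49958 on chromosome 17 (median 2.62), where reads of the 2 strands cannot be told apart.

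**Figure D4:**
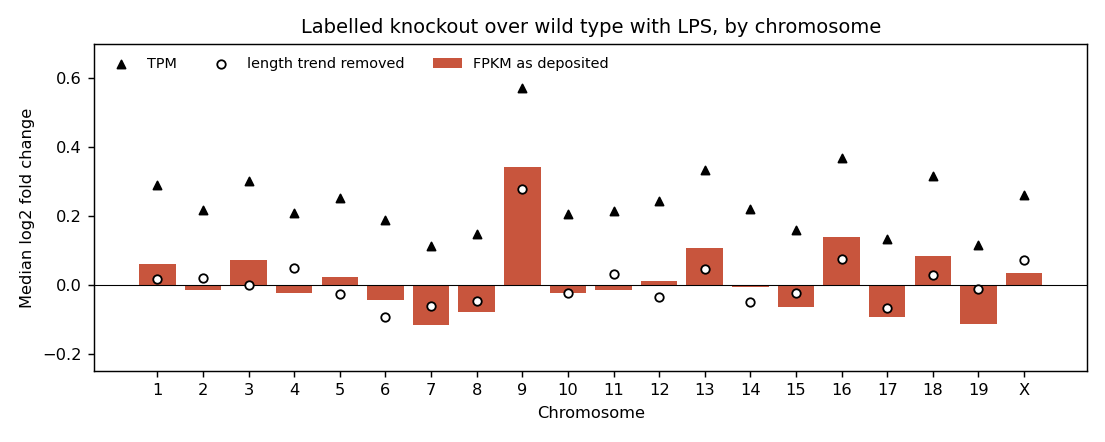
Median log2 fold change of libraries labelled knockout over wild type with LPS, for genes with a mean FPKM of at least 1 on each autosome and the X chromosome, with FPKM as deposited (bars), TPM (triangles) and with the length trend removed (circles). Chromosome 9 lies above the other chromosomes plotted on each scale.

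The same line with PBS shows which differences were present without LPS. One PBS library labelled knockout, replicate 1, stood apart from its group (its chi-square was 88.9 and 90.0 times the degrees of freedom against replicates 2 and 3, and 2.33 times between those), and its longest-minus-shortest value was -0.29 against 0.54 and 0.56 in the other PBS libraries labelled knockout. Y-linked Eif2s3y, Ddx3y and Kdm5d had no count in it either. The difference between the genotypes changed with LPS for 521 of 26740 genes (1.95%, limma interaction over 12 libraries), 242 higher (0.905%) and 279 lower (1.04%), and without that library for 904 of 26538 (3.41%), 341 higher (1.28%) and 563 lower (2.12%). Of the 4876 genes called with LPS, 369 had a called interaction, 482 without that library.

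Csf2, Csf3 and Ccl7 lay near 0 with PBS in both genotypes. Csf3 was at 0.030 and 0.0733 FPKM with PBS in wild type and in libraries labelled knockout (interaction -5.18, adjusted p = 0.0002003, limma). Csf2 was at 0.0633 and 0.0267 FPKM (interaction -5.46, adjusted p = 0.00135, limma). Mmp9 was at 0.0267 and 0.0167 FPKM with PBS (interaction -3.79). Lyz2 was already lower with PBS, at 2052 against 317 FPKM, and its interaction was not called. Prdm1, which encodes the repressor BLIMP1, and the integrin gene Itgb8 had near 0 FPKM in the other 3 groups and reached 1.14 ± 0.206 and 1.12 ± 0.126 FPKM in libraries labelled knockout with LPS (interactions 3.44 and 3.55). Tox2, a nuclear factor gene, differed mainly with PBS (3.42 FPKM in wild type and no count in libraries labelled knockout), and P2ry12, a nucleotide receptor gene, was at 0.183 FPKM with PBS in wild type, 6.96 in libraries labelled knockout and near 0 in both groups with LPS. In libraries labelled knockout Olfml3 was at 0.95 FPKM with PBS and 18.7 with LPS, against 0.163 and 0.183 in wild type (interaction 4.13). Gm10964 was at 7.74 and 145 FPKM in libraries labelled knockout and had no count in wild type (interaction 4.23). All 10 interactions of the largest size were also called without replicate 1 of the PBS libraries labelled knockout. By edgeR those of Csf3 and Olfml3 passed and the other 8 did not, and by DESeq2 those of Csf2, Csf3, Mmp9, Itgb8 and Olfml3 passed.

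**Figure D5:**
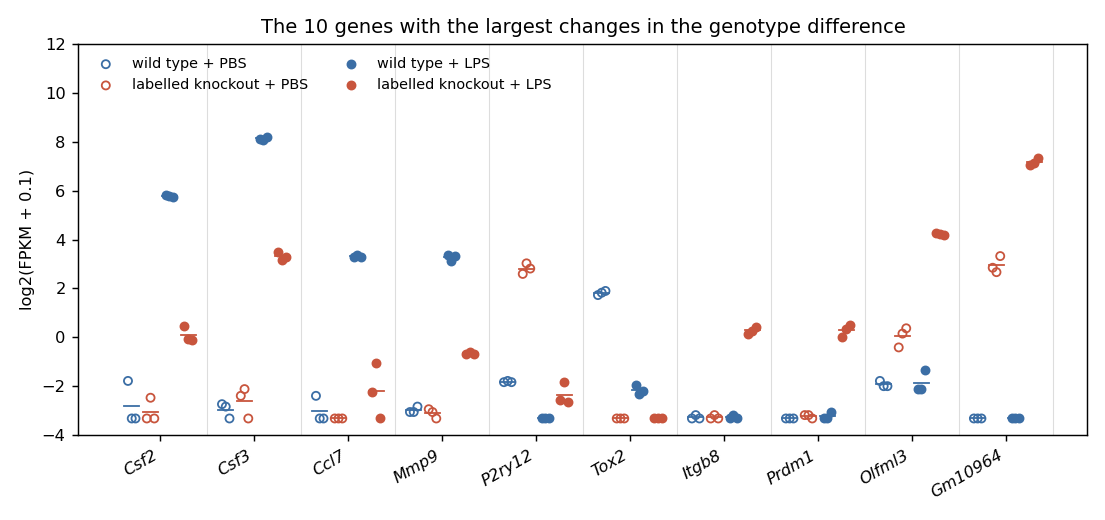
Log2(FPKM + 0.1) of the 10 genes with the largest called interactions of genotype and LPS in 12 RAW264.7 libraries; open circles are PBS and filled circles LPS, blue is wild type and red labelled knockout, and bars are means. Csf2, Csf3, Ccl7 and Mmp9 are near the bottom of the axis with PBS in both genotypes and reach high levels with LPS mainly in wild type.

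BMDMs of wild-type and Olfml3-/- mice with LPS gave other values for the same genes. Their table was normalized separately, the directions were set side by side and not tested against each other, and 4.51% of 23689 genes were called in that comparison. Olfml3 was lower there (0.247 to 0.00333 FPKM, log2 fold change -1.75). Csf3 was higher in knockout BMDMs (0.243 to 2.08 FPKM, log2 fold change 2.69, adjusted p = 0.00445, limma), as were Csf2 (0.28 to 2.31 FPKM), Cxcl2 (29.2 to 112 FPKM) and Ccl2 (725 to 1209 FPKM), each of which was lower in the RAW264.7 libraries labelled knockout. Il6 was higher in both cell types (82.3 to 127 FPKM in BMDMs), and Il10 and Cxcl11 were lower in both. Rsad2, Nos2 and Acod1 were not called in BMDMs.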

How the data were processed

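The 24 RNA libraries were made from poly(A) RNA and sequenced with paired reads of 150 bases, per the study's methods. For each cell type the authors deposited a table of read counts per gene and FPKM for 56691 Ensembl genes, 2639 of them without a symbol. The FPKM were made by the authors from those counts, since 99.9% of 122116 values over 50 counts were rebuilt within 1% from the count, the gene length and the library total. The submitters' processing notes name mm10, but 1435 of 52073 gene positions matched GRCm38 in GENCODE M21, so the build of the table's coordinates is unsettled and no coordinate of it is printed. Chromosome bins used them as deposited. The tables carry no batch, and the instrument of each library, the aligner and the strand setting of the counter were not given in the sources used here.

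Groups followed the titles and library names. Genes with a value above 0 in the comparison were fitted with limma 3.58.1 in R 4.3.3 on log2(FPKM + 0.1), a scale chosen here, over the 6 LPS libraries, the 12 RAW264.7 libraries for the interaction and the 6 BMDM libraries with LPS. Calls needed a p under 0.05 after Benjamini-Hochberg adjustment, and 1.5-fold or more, and limma and these thresholds are those of the study's methods. Alternatives were edgeR 4.0.16 and DESeq2 1.42.0 on counts, TPM, median-ratio and quantile scaling, pseudocounts of 0.01 and 1, filters, a replicate block, leaving out each library and, added after seeing the data, removal of a lowess trend (span 0.3) over exonic length. Library totals covered 11638273 to 14712413 counts. The steps were tested on simulated data, where limma made more false calls than edgeR or DESeq2. The members, the 35 gene lists and the tests were chosen with earlier results of these data known. Named genes were the genes the study edited or measured, Y-linked genes, the 10 strongest changes in each direction, the 4 largest called and 2 most abundant not called members of each list, of which a part is described and some are not reported here, the 5 neighbours of Olfml3 on each side, the 5 largest interactions each way and the 10 most abundant called genes. Runs and chromosome values are descriptions, and genes named in runs were chosen after their values were seen.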

Additional observations from a re-analysis of the deposited data

Results flagged for a closer look

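The genotype difference changed with LPS (limma interaction over 12 libraries, adjusted p under 0.05 and at least 1.5-fold) for 40 of the named genes. Of these, 18 kept the call with edgeR, 21 of 39 with DESeq2 and 20 with a pseudocount of 0.01. Values are log2 changes of the difference between libraries labelled knockout and wild type, with LPS relative to PBS. Slfn1 and Ch25h had no count in any PBS library, so their values only repeat the difference with LPS. Among secreted factors and their receptors these were -5.46 for Csf2, -5.18 for Csf3, -5.22 for Ccl7, -2.89 for Il10, -2.09 for Ccl2, -1.75 for Cxcl11, -2.90 for Ccr1 and -0.95 for Flt1, and upward 2.19 for Il6 and 1.63 for Ccl3. The value of Ccl2 turned upward with DESeq2 and with a pseudocount of 0.01. Interferon-stimulated genes gave -2.42 for Rsad2 and -3.33 for Slfn1, while Isg15, itself not called with LPS, gave 2.26. Over all 51 tested genes of that list, the interaction was called higher for 16 and lower for 6. With PBS Isg15, Cmpk2 and Ifi27l2a were already called lower (log2 fold changes -2.67, -1.99 and -3.06), and Rsad2 was not called. Regulators of the response gave 1.05 for Nfkbiz, -1.55 for Dusp6 and -0.72 for Trib1. Metabolic genes gave -2.41 for Nos2, -2.17 for Ass1, -1.53 for Odc1, -0.67 for Idh1, 1.05 for Egln3, 2.77 for Ch25h, 0.97 for Lpl and -3.17 for Hpgd. The value of Egln3 turned downward with DESeq2 and edgeR. Proteases, their inhibitor and matrix genes gave -3.79 for Mmp9, -2.06 for Plau, -1.04 for Adam8, 2.77 for Timp1 and 1.96 for Spp1. The rest were -0.78 for Mlkl, 1.36 for Eda2r, -1.39 for Ddit4, -2.40 for Siglec1, -0.72 for Csf1r, -3.65 for P2ry12, 3.97 for Tox2, 3.55 for Itgb8, 3.44 for Prdm1, 4.13 for Olfml3 and 4.23 for Gm10964.

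For 16 named genes all 3 RAW264.7 libraries labelled knockout moved one way with LPS and all 3 knockout BMDM libraries the other, each called in its own comparison. The difference between the cell types was not tested. Genes lower in RAW264.7 had BMDM log2 fold changes of 2.69 for Csf3, 2.67 for Csf2, 2.09 for 3830403N18Rik, 1.94 for Cxcl2, 1.33 for Mmp9, 1.33 for Dusp6, 1.15 for Egln3, 0.92 for Trib1, 0.89 for Ptgir, 0.74 for Ccl2, 0.69 for Fdps, 0.68 for Fpr1 and 0.59 for Flt1. Genes higher in RAW264.7 had -1.75 for Olfml3, -1.30 for Ch25h and -0.91 for P2ry12. In BMDMs Flt1 lay only just above the 1.5-fold threshold. P2ry12 was near 0 in both RAW264.7 groups with LPS.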

How the results depend on the processing

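The count of genes called with LPS was 8118 with the adjusted p alone and 3226 with a pseudocount of 1, and lay between 3627 and 5340 under the other settings (4489 to 4738 leaving out 1 library). DESeq2 called 4890 and edgeR 4489. Of the 124 named calls, 124 held with DESeq2, 119 of the 119 with a value in edgeR, 111 with TPM, 114 with quantile normalization, 106 with the length trend removed and 119 to 120 leaving out 1 library, and no direction reversed in any setting. The replicate numbers did not pair the libraries (correlations of -0.0088, 0.013 and -0.023 between same-numbered libraries). With the replicate block 4304 genes were called with LPS, 367 for the interaction and, in BMDMs, 0 in place of 1069 by limma (5335 at an unadjusted p under 0.05, smallest adjusted p 0.0852, 1172 by edgeR without the block). The interaction count ran from 400 to 904 leaving out 1 library, 904 being without replicate 1 of the PBS libraries labelled knockout, with 504 genes in both. The BMDM count was 2616 with the adjusted p alone and 435 with a pseudocount of 1, and ran from 598 to 824 leaving out 1 library, the lowest without replicate 2 of the knockout, with 669 and 710 without replicates 3 and 1. The share of BMDM calls that were higher was 65.9%, 49.1% by edgeR and 41.9% with median-ratio scaling. For Ccl2 the interaction turned from -2.09 to 0.40 with DESeq2 and 0.32 with a pseudocount of 0.01, and for Egln3 from 1.05 to -0.088 with DESeq2, -1.26 with edgeR and -1.25 with edgeR and no filter, where the cause was not tested. Of gene list counts 338 stayed within 1.5 times their main count and 82 did not. Depth limits weak genes such as Ccl7 and Ccl12, and 1246 calls were of genes with a mean FPKM under 1.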

Other observations

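Genes outside the lists also lay together in runs of neighbours called higher. On chromosome 4 a run of 5 held Tnfsf15 and Tnfsf8, ligands of the tumour necrosis factor family, with the matrix gene Tnc and Tmem268 (median log2 fold change 2.48). On chromosome 13 a run held Pik3r1, the regulatory subunit of PI3 kinase, with Cd180 and Mast4 (median 2.03), and on the X chromosome a run held Slc9a7, Rp2, Chst7 and Jade3 (median 1.45). On chromosome 9 a run of 6 held Smarca4 and Carm1 (median 0.93). The fit was to single genes, and no test was made of the runs.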
